A study of Mus musculus with 6 samples.

Results

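The genes of the circadian clock were examined in livers of mice that lack Pdss2 in hepatocytes, on all 24 probe sets that carry exactly 1 of the symbols Arntl (also called Bmal1), Clock, Npas2, Per1, Per2, Per3, Cry1, Nr1d1, Nr1d2 and Dbp. They were chosen by gene name from the 34958 probe sets of the array with a single gene symbol, and each of the 10 genes had at least 1 probe set. Total liver RNA came from 3 B6.Alb/cre,Pdss2loxP/loxP mutants, aged 176, 178 and 224 days (mutants 1 to 3), and from 3 B6.Pdss2loxP/loxP controls, aged 209, 213 and 140 days (controls 1 to 3), with 1 Affymetrix mouse array per animal. All mice were males and all carried the floxed Pdss2 alleles, and cre, driven by the albumin promoter and so made in hepatocytes, was present in mutants alone. The product of Pdss2 is needed to make the isoprenoid tail of coenzyme Q. The genotypes were kept in different cages and food was withdrawn from both some hours before death. The sources used here do not state the hour of collection, and the labels name 1 pair as concurrent, mutant 3 and control 1.

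The clock of liver is a loop of transcription that each cell runs by itself. ARNTL pairs with CLOCK or NPAS2, binds E-boxes and activates the Per, Cry, Nr1d and Dbp genes, and PER and CRY proteins then block this activator. NR1D1 and NR1D2 (REV-ERB alpha and beta) repress Arntl, Clock and Npas2 at RORE elements, where the ROR receptors activate, and DBP carries the rhythm to output genes through D-boxes. In livers of mice under a cycle of light and dark, Arntl, Clock and Npas2 RNA is known to peak near the end of the night, Nr1d1 during the day, Dbp and Per3 later in the day, Per1 and Per2 near nightfall, and Cry1 late at night. The level of such an RNA can therefore vary with the hour at which a liver was taken as well as with genotype, and the group comparison alone cannot tell these apart.

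The elements through which these genes act on each other are given for 4 of them, since the loop runs through these sites. The sequences are from the RefSeq promoter windows of GRCm38.p6, which run from 250 bases before to 50 after a transcription start, and 9 of the 10 genes had such windows (13 in all), Per2 being the other gene. The motifs searched on both strands were the E-box CACGTG, the related E'-box CACGTT, the D-box TTATGTAA or TTACGTAA, and the core of the RORE, TAGGTCA or TGGGTCA. Of all 32851 windows, 7.15% held the E-box, 4.68% the E'-box, 1.06% the D-box and 6.45% the RORE core. Capitals mark the E-box of Per1 and Cry1, the D-boxes of Per3 and the RORE core of Arntl.
Per1 (chr11:69098699-69098948, plus strand): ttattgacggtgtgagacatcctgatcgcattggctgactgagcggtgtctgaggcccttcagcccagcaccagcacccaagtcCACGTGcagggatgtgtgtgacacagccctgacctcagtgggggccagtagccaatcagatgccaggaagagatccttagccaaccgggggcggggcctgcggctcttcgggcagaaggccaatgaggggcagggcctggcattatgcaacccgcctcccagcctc
Cry1 (chr10:85185055-85185304, minus strand): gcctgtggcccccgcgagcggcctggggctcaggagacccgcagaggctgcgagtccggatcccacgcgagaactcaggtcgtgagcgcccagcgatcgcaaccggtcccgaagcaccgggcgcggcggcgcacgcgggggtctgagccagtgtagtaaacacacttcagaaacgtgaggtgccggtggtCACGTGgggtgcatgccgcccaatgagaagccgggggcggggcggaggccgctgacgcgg
Per3 (chr4:151044666-151044915, minus strand): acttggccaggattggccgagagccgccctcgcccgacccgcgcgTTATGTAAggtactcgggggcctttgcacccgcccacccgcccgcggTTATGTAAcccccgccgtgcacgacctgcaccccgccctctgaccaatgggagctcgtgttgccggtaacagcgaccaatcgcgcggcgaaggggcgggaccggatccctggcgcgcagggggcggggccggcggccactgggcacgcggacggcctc
Arntl (chr7:113207531-113207557, plus strand): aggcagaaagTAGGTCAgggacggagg
The Per1 E-box lies at -166 to -161 from the start, that of Cry1 at -60 to -55, and the Per3 D-boxes at -205 to -198 and -158 to -151. The Arntl core lies after the start, at 31 to 37. An E'-box was also found for Cry1 at -79 and for Nr1d1 at -28. No searched motif stood in the windows of Clock, Npas2, Nr1d2 and Dbp. A match describes the letters of the window and is no measure of binding.

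The arrays differed in ways that touch every value. Pdss2 itself read 6.94, 6.88 and 7.05 in mutants and 7.46, 7.47 and 7.56 in controls on its brightest probe set, 1444085_at (difference -0.54, adjusted p = 0.104 from limma), and differed by 0.40 and 0.35 on the other 2. Where these probes lie relative to the deleted part was not analysed here, so they do not check the deletion. By quantitative PCR the authors reported a strong loss of Pdss2 RNA in livers of this genotype. The median difference of all probe sets was 0.16, against 0.03 after quantile normalization and -0.01 after centring every array. The spiked-in bacterial transcript BioB lay at 10.41 to 11.04 in mutants and 8.67 to 9.13 in controls. The log2 signal of a 3' probe set less that of the 5' one can shift with RNA integrity, among other things. For Gapdh it was -1.78 to 0.45 in mutants and 2.02 to 2.31 in controls. For Actb it overlapped, at 2.60 to 4.495 in mutants and 3.11 to 3.90 in controls. Of 9 markers of sinusoidal endothelium, 2 were higher at an adjusted p under 0.05, beside 2.68% of all genes on their brightest probe set. Without overlap 6 of the 9 were higher, beside 20.8% of all probe sets, while Pecam1, Kdr and Clec4g overlapped. The log2 of the summed signal of these markers was 12.45 to 13.21 in mutants and 11.22 to 12.07 in controls. For Kupffer cell markers it was 11.21 to 11.996 in mutants and 10.15 to 11.19 in controls, with none of 7 called by limma. For hepatocyte markers it was 15.67 to 16.00 in mutants and 15.97 to 16.00 in controls, with none of 7 called either. For cholangiocyte markers it was 8.30 to 8.71 in mutants and 7.89 to 8.06 in controls, with 1 of 4 called higher. The part of these differences in the results below was not tested, and in whole tissue fewer cells of a type and less RNA per cell cannot be told apart.

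Each difference is that of the mutant mean less the control mean in log2 units, with its standard error from limma, and p-values are adjusted over all 34958 probe sets by the Benjamini-Hochberg method. With 3 mice against 3 the exact permutation test cannot give a p below 0.1. Of the 24 clock probe sets 1 was called, higher in mutants, at an adjusted p under 0.05, and none was called lower, where 3.79% of all probe sets were called (2.11% higher and 1.68% lower). The groups did not overlap on 7 of them, 4 higher and 3 lower in mutants, or 29.2%, against 33.4% of all probe sets (20.8% higher and 12.5% lower). At an unadjusted p under 0.05 there were 9 (4 higher and 5 lower), or 37.5%, against 26.9%. The mean was higher in mutants on 15 of the 24, or 62.5%, against 63.2% of all probe sets, and the median difference was 0.20, beside 0.16 over all. The shares called and without overlap were thus close to those of the array as a whole, and that at an unadjusted p was higher. Of the 7 genes with more than 1 probe set, 4 (Arntl, Npas2, Per3 and Nr1d2) had probe sets of opposite sign, although the small positive difference of Nr1d2 turned negative after quantile normalization or centring. The count of clock probe sets called was 3 without mutant 1 and 0 without any other single mouse, while that of all probe sets, 1324, was 3992 without mutant 1, 3 without control 1, 1 without mutant 3 and 0 without mutant 2, control 2 or control 3.

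**Figure D1:**
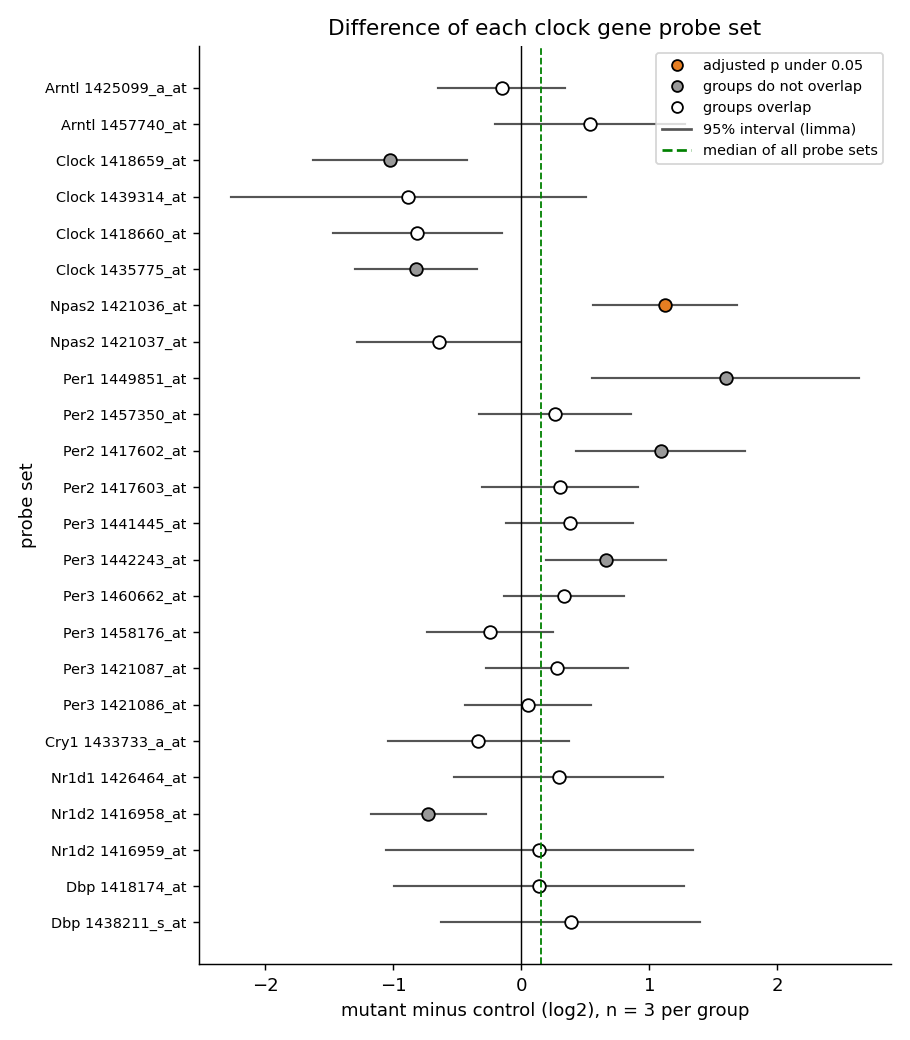
Difference in log2 value between mutants and controls (horizontal axis) for each of the 24 clock probe sets (vertical axis), n = 3 per group, with the 95% interval from limma; the orange point passed the adjusted p, grey points mark other probe sets whose groups do not overlap, and the dashed line marks the median of all probe sets, 0.16. Clock lies to the left on all 4 probe sets, Npas2 has 1 on each side, and Per1 lies farthest to the right at 1.60.

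Among the activators, Clock was the gene whose probe sets ran together: all 4 were lower in mutants, by 0.81 to 1.03 on the log2 scale, and none passed the adjusted p. Clock encodes the partner of ARNTL. Its brightest probe set, 1418659_at, read 7.15, 6.92 and 7.59 in mutants, against 8.53, 8.31 and 7.90 in controls. Each mutant lay below each control, and the gap between mutant 3 and control 3 was the narrowest. The difference was -1.03 (standard error 0.26, n = 3 per group), which put the mutants at 49.1% of controls, with an adjusted p of 0.063 from limma. On 1435775_at mutants had 5.80, 5.49 and 5.90 and controls 6.64, 6.67 and 6.34, again without overlap (difference -0.82, adjusted p = 0.0625 from limma). On 1418660_at mutant 3, at 7.51, and control 3, at 7.50, met, and the difference was -0.81. The widest spread was that of 1439314_at, with 6.10, 6.69 and 8.44 in mutants and 8.53, 8.13 and 7.21 in controls, where mutant 3 stood among the controls and above control 3. The brightest probe set passed the adjusted p when age was a covariate (0.034), when only the brightest probe set of each gene was tested (0.0476) and when only probe sets above the median level were (0.0357). It did not pass in the other 13 of 16 alternatives, where the adjusted p from limma reached 0.207.

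Npas2, which encodes a protein that can stand in for CLOCK, carried the single call. On 1421036_at it read 7.23, 7.81 and 7.10 in mutants and 6.06, 6.40 and 6.31 in controls, and rose by 1.12 (limma adjusted p = 0.0498, standard error 0.24, n = 3 each), or 2.18-fold. Each mutant lay above each control, mutant 2 highest. The other probe set, 1421037_at, ran the other way, with 5.42, 5.51 and 5.97 in mutants and 6.77, 6.13 and 5.95 in controls (difference -0.65, adjusted p = 0.182 from limma), and mutant 3 and control 3 overlapped on it. With the mean of both probe sets the difference of Npas2 was 0.24 (adjusted p = 0.39 from limma). Under the 16 alternatives the adjusted p of 1421036_at ran from 0.0268 to 0.39, and the call was lost in 11 of them, among these the omission of any single mouse other than mutant 1.

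Arntl, which encodes the shared partner in both activator pairs, differed little on its brightest probe set. There, on 1425099_a_at, mutants had 6.79, 7.13 and 7.40 and controls 7.33, 7.19 and 7.26. Mutant 1 was lowest, mutant 3 highest, and the controls lay between them, close together (SD 0.07). The difference was -0.15 (95% interval -0.65 to 0.34, adjusted p = 0.691 from limma), and the whole range over the 6 mice was 0.61, or 1.53-fold, which was wider than that of 17.4% of all probe sets. The second probe set, 1457740_at, read 6.77, 6.98 and 7.79 in mutants, against 6.93, 6.78 and 6.23 in controls (difference 0.54, adjusted p = 0.324 from limma). Mutant 3 was highest on it too, and control 3 lowest.

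**Figure D2:**
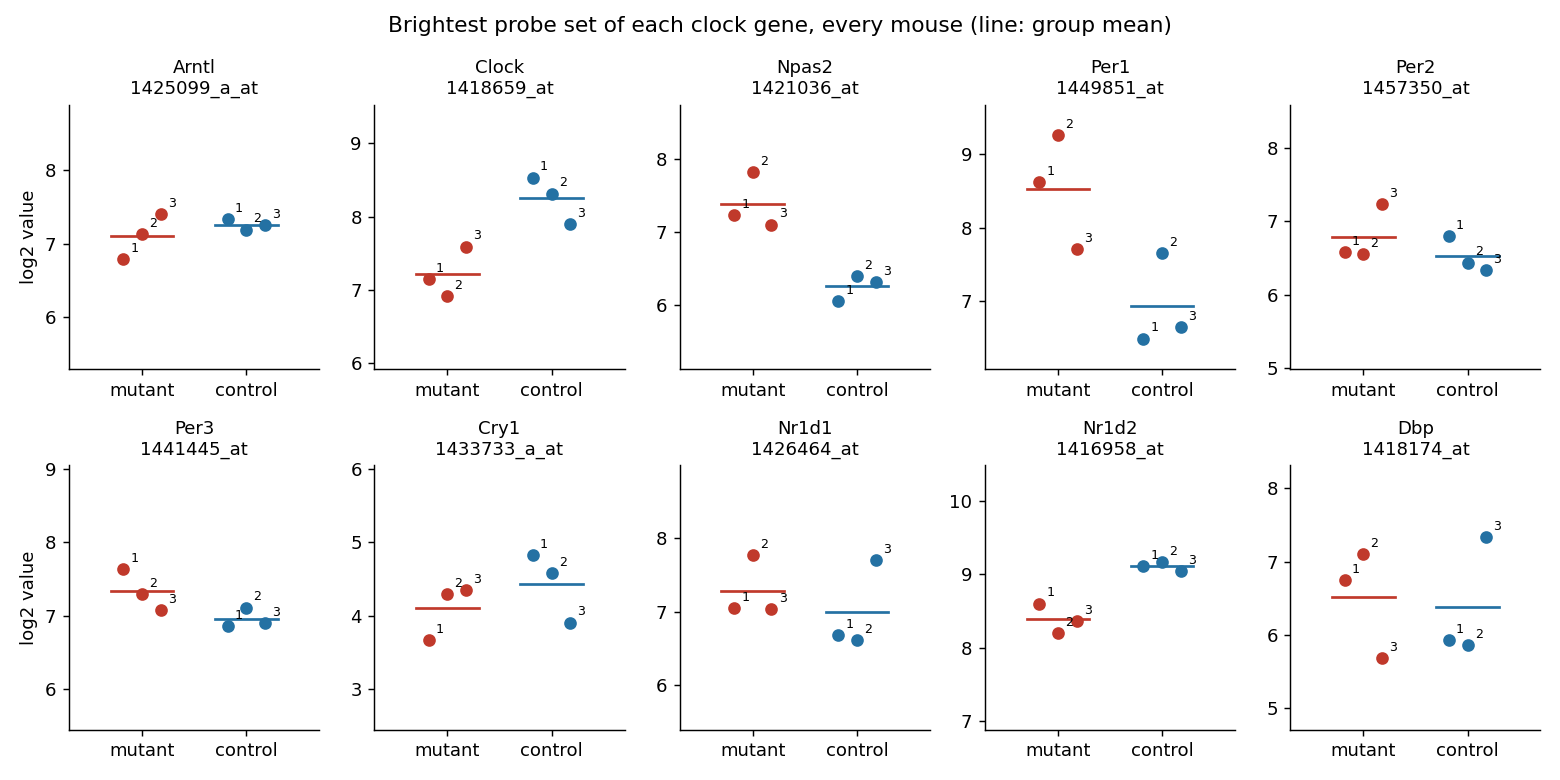
Log2 value (vertical axis) on the brightest probe set of each of the 10 clock genes in every mutant (red, left) and control (blue, right), with the mouse number beside each point and a line at the group mean; every panel spans the same number of log2 units. Groups do not overlap for Clock, Npas2, Per1 and Nr1d2, and mutant 2 and control 3 are the 2 highest mice for Nr1d1 and Dbp.

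Per1, Per2 and Per3 encode the repressors that act with the cryptochromes, and 9 of their 10 probe sets had a higher mean in mutants, without a call (8 of 10 after quantile normalization or centring, when Per3 1421086_at turned). Over the whole array 63.2% of probe sets had a higher mean in mutants, with a median difference of 0.16. Per3 alone has 6 of the 10, which share their transcripts. Per1, whose RNA also responds to glucocorticoids, read 8.62, 9.26 and 7.71 in mutants and 6.49, 7.66 and 6.65 in controls. Each mutant lay above each control, but mutant 3 and control 2 were separated by little, and the range over the 6 mice, 2.77 or 6.83-fold, was wider than that of 98.3% of all probe sets. The difference was 1.60 (standard error 0.45, 95% interval 0.55 to 2.64, n = 3 per group), the largest among the clock probe sets, with an adjusted p of 0.0777 from limma. Per2 did not overlap on 1417602_at, with 6.78, 6.76 and 6.94 in mutants and 6.27, 5.76 and 5.19 in controls. The mutants were close together there and the controls were spread (SD 0.10 in mutants and 0.54 in controls), and the difference was 1.09 (adjusted p = 0.0675 from limma). The other probe sets of Per2 differed by 0.26 and 0.30 and overlapped.

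Per3 had 6 probe sets, of which 5 were higher and 1 lower in mutants, between -0.25 and 0.66, with 1421086_at, at 0.05, turning to -0.14 after quantile normalization and -0.11 after centring. The groups did not overlap on 1442243_at, with 7.08, 7.42 and 7.57 in mutants and 6.61, 6.72 and 6.74 in controls (difference 0.66, standard error 0.20, adjusted p = 0.0899 from limma). The brightest, 1441445_at, read 7.63, 7.29 and 7.08 in mutants, against 6.86, 7.11 and 6.90 in controls, so that mutant 3 lay below control 2 (difference 0.38, adjusted p = 0.297 from limma). The order of the mutants was thus opposite on these 2 probe sets. Cry1, the only cryptochrome gene among the 10, was dim on its single probe set, with 3.66, 4.29 and 4.34 in mutants and 4.83, 4.58 and 3.90 in controls, below the lower quartile of every array (5.03 to 5.40). The groups overlapped (difference -0.34, adjusted p = 0.524 from limma).

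Nr1d1 and Dbp, which are among the most strongly rhythmic RNAs of mouse liver, separated mice within each genotype and not the genotypes. Nr1d1 read 7.05, 7.78 and 7.04 in mutants and 6.68, 6.61 and 7.70 in controls, so that mutant 2 and control 3 stood 0.65 or more above the other 4 mice. The difference between the groups was 0.29 (95% interval -0.52 to 1.11, adjusted p = 0.64 from limma). Dbp on 1418174_at had 6.75, 7.11 and 5.69 in mutants and 5.93, 5.87 and 7.33 in controls. Control 3 and mutant 2 were again highest, mutant 1 came next, and mutant 3 and the other controls lay between 5.69 and 5.93. The 3 highest on this probe set, control 3, mutant 2 and mutant 1, were also the youngest mice, at 140, 178 and 176 days. The others were 209 to 224 days old. On Nr1d1 the youngest did not stand together, as mutant 1, at 7.05, was level with mutant 3, at 7.04. Age and any shared hour of collection cannot be told apart here. The SD of Dbp was 0.74 within mutants and 0.83 within controls, against medians of 0.31 and 0.25 over all probe sets, and the difference was 0.14 (95% interval -0.997 to 1.27, adjusted p = 0.887 from limma). On 1438211_s_at, whose suffix marks a probe set that may read other transcripts as well, mutant 1 was highest at 7.12 and control 3 second at 6.24, and mutant 2, at 5.67, came next.

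Nr1d2 gave different patterns on its 2 probe sets. The bright one, 1416958_at, read 8.60, 8.20 and 8.36 in mutants and 9.11, 9.17 and 9.04 in controls, without overlap and with the controls close together (SD 0.20 in mutants and 0.06 in controls). The difference was -0.73 (standard error 0.19, n = 3 per group), or 60.5% of the control level, with an adjusted p of 0.0693 from limma. On 1416959_at mutant 2, at 7.13, and control 3, at 6.78, stood far above the other 4 mice, at 5.48 to 5.60. The same 2 mice were highest on Nr1d1 and on Dbp 1418174_at, while the order of the others differed, and the difference between the groups there was 0.14 (adjusted p = 0.892 from limma). Mutant 2 and control 3 were the 2 highest mice on 5 of the 24 clock probe sets, or 20.8%, but also on 19.9% of all probe sets. Where the second highest mouse exceeded the third by at least 0.5, the counts were 2 of 24 and 6.13% of all. The pattern was thus about as frequent over the whole array as among clock genes.

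**Figure D3:**
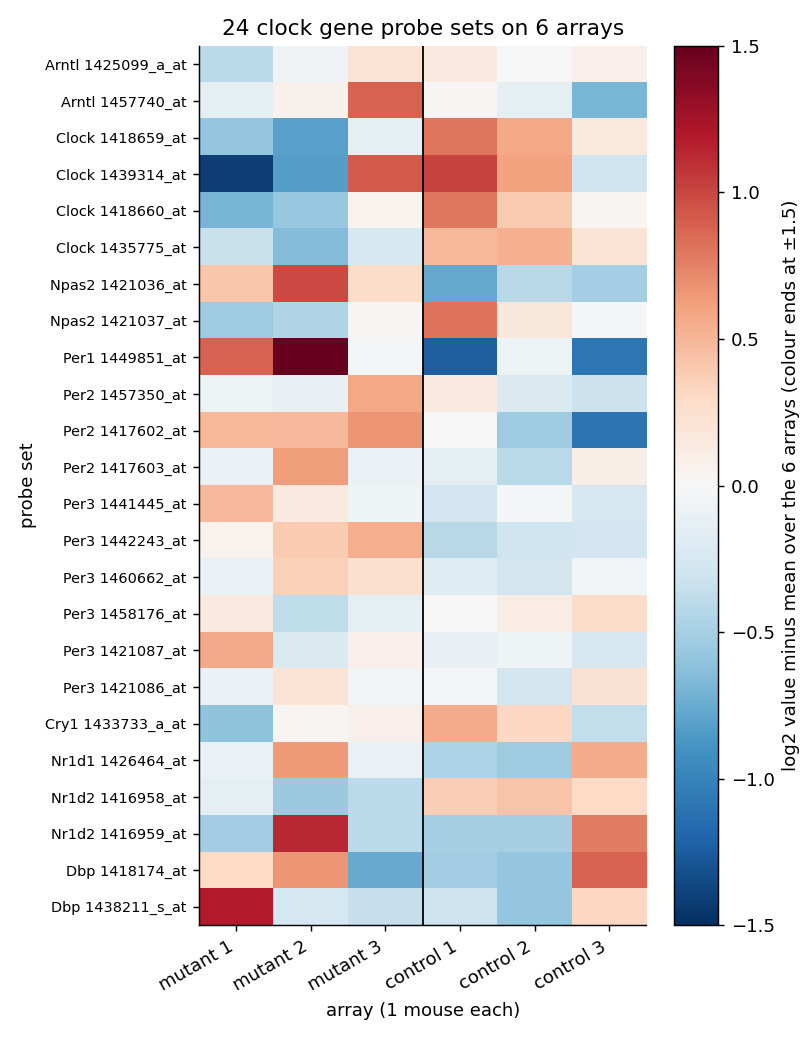
Log2 value minus the mean over the 6 arrays (colour) for the 24 clock probe sets (rows) in mutants 1 to 3 (left) and controls 1 to 3 (right). Mutant 2 and control 3 are high together on Nr1d1 1426464_at, Nr1d2 1416959_at and Dbp 1418174_at, and the 4 rows of Clock are mostly blue in mutants and red in controls.

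The 6 arrays were then compared pair by pair, with the median size of the log2 difference over the 24 clock probe sets set beside that over all 34958. For 12 of the 15 pairs the clock genes differed more than the array as a whole. The widest relative gap was between mutant 1 and control 2, at 0.60 over clock genes and 0.34 over all. The 3 exceptions were mutant 3 and control 2 (0.31 and 0.42), mutant 3 and control 1, the concurrent pair (0.43 and 0.48), and mutants 1 and 2 (0.38 and 0.40). Controls 1 and 2 were closest of all pairs on both measures, at 0.23 and 0.19. After centring of the arrays the ratio of clock genes to all probe sets was 0.85, 0.98 and 1.00 for the 3 exceptions, and on the brightest probe set of each gene it was 0.77, 0.92 and 0.99, with mutant 2 and control 3 at 0.96 as a further pair below 1. By clock genes mutant 3 lay nearest to control 2 (0.31), then about equally far from control 1 and mutant 2 (0.43 each), then mutant 1 (0.49). Over all probe sets it lay nearest to mutant 1 (0.30) and mutant 2 (0.37), then control 2 (0.42) and control 1 (0.48). Mutant 3 and controls 1 and 2 were also the 3 oldest mice, at 209 to 224 days, so that age and any shared day or hour of collection cannot be told apart. These distances are a description with no test, and the probe sets of a gene share their transcripts.

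**Figure D4:**
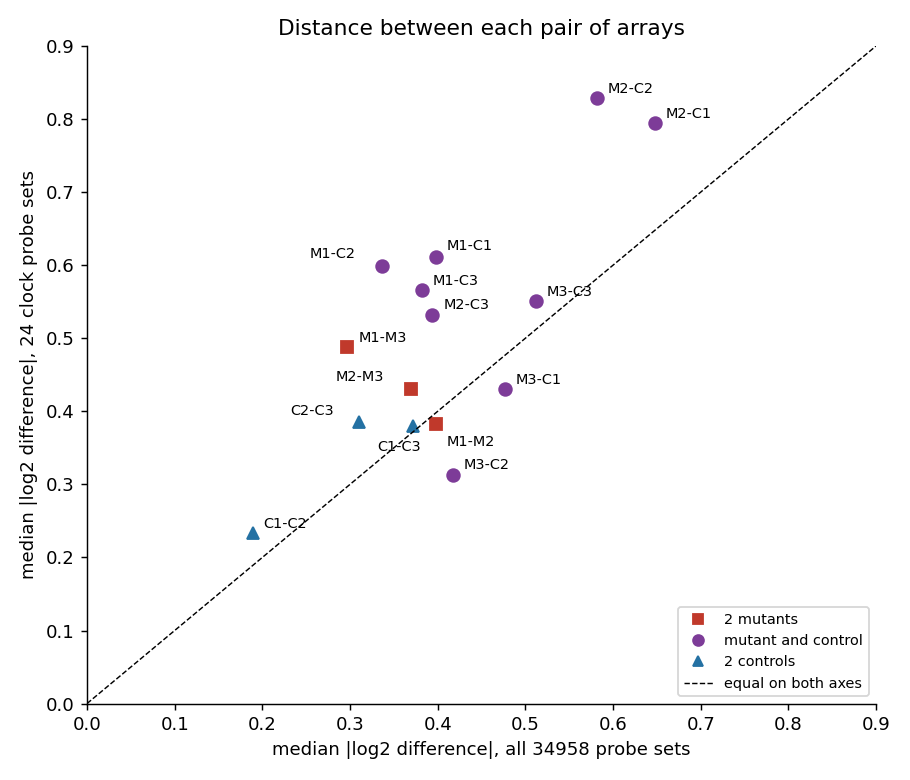
Median size of the log2 difference between 2 arrays over all 34958 probe sets (horizontal axis) and over the 24 clock probe sets (vertical axis) for the 15 pairs of mutants (M) and controls (C). M3-C2, M3-C1 and, narrowly, M1-M2 lie below the dashed line of equality.

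Within the concurrent pair, mutant 3 minus control 1 was 1.22 for Per1, 1.04 for Npas2 on 1421036_at, 0.67 for Per2 on 1417602_at and 0.96 for Per3 on 1442243_at. It was -0.94 and -0.75 for Clock on 1418659_at and 1435775_at and -0.76 for Nr1d2 on 1416958_at. These are the 7 probe sets without overlap, so their direction in this pair is fixed by that. On the other probe sets of these genes it was -0.80 for Npas2 (1421037_at), -0.75 and -0.09 for Clock (1418660_at and 1439314_at) and 0.09 for Nr1d2 (1416959_at). For Per2 it was 0.44 and 0.065 on 1457350_at and 1417603_at, and for Per3 it ran from -0.13 to 0.42. For Arntl it was 0.07 on 1425099_a_at but 0.86 on 1457740_at. It was -0.48 for Cry1, 0.36 for Nr1d1, and -0.24 and -0.04 for Dbp on 1418174_at and 1438211_s_at. A single pair of mice gives no error.

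The rest of the loop was read on a list of 20 further clock genes, of which 18 were measured and 1 was called on its brightest probe set, higher in mutants, where 4.59% of all genes were called on theirs (2.68% higher and 1.92% lower). This was Csnk1d, a casein kinase that phosphorylates PER proteins, with 11.83, 12.70 and 11.65 in mutants and 9.94, 9.83 and 9.84 in controls on 1456727_a_at. It rose by 2.19 (limma adjusted p = 0.0282, standard error 0.29, n = 3 each) and by 1.30 on 1449932_at, while its other probe sets differed by -0.35 to 0.05. Rora, which activates at the RORE, was lower in mutants on its brightest probe set, 1424034_at, with 8.90, 8.33 and 8.42, against 9.93, 9.79 and 9.01 in controls (difference -1.03, adjusted p = 0.0809 from limma). Of its 9 probe sets 7 had a lower mean in mutants and 4 of these did not overlap. It fell by 1.47 on 1436326_at and by 1.28 on 1436325_at, differed by -1.16 on 1455165_at without a call, and by 0.61 and 0.19 on the 2 others, 1441085_at and 1458145_at. Hlf, a D-box factor like Dbp, fell by 1.65 on 1434735_at (adjusted p = 0.0439 from limma) and differed by -0.41 on its brighter probe set. Fbxw11, a ligase subunit that marks PER for degradation, fell by 1.13 on 1425462_at (adjusted p = 0.0498 from limma). It differed by -0.56 on its brightest probe set and by -0.18 to 0.41 on the others. Btrc, of the same list, was higher in mutants on all 5 of its probe sets, by 0.15 to 0.88, without a call. Over all 52 probe sets of the list 2 were called higher and 4 lower, beside 2.11% higher and 1.68% lower of all probe sets. Without overlap of the groups 11 of the 52 were higher and 9 lower, beside 20.8% and 12.5% of all probe sets. Fbxl21, an F-box protein of CRY turnover, and Nono, which binds PER proteins, differed by 1.13 and 0.56 on their brightest probe sets without a call. Fbxl21 was dim, its controls, at 4.29, 5.00 and 3.92, being below the lower quartile of every array (5.03 to 5.40). On 1415820_x_at Nono differed by -1.16 (adjusted p = 0.0677 from limma), again without overlap. Without each mouse other than mutant 1 no gene of this list was called.

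None of 12 measured clock output genes of liver was called by limma, while 3 had an unadjusted p under 0.05, where 29.9% of all genes did on their brightest probe set. Noct, which encodes nocturnin, a rhythmic phosphatase, read 8.79, 9.43 and 10.12 in mutants and 8.02, 8.65 and 7.23 in controls (difference 1.48, adjusted p = 0.0845 from limma). Elovl3, a fatty acid elongase, differed by -0.82 and Nampt, an E-box target of NAD synthesis, by -0.70, each without overlap of the groups. Of all 22 probe sets of the list 3 were higher and 5 lower without overlap, beside 20.8% and 12.5% of all probe sets. Ppara had both, with differences of 1.14 on 1457721_at and -0.78 on 1439675_at. Cyp7a1, the rate-limiting enzyme of bile acid synthesis, ranged widely within mutants, at 9.59, 6.46 and 9.93, against 7.88, 8.57 and 8.66 in controls. Mutant 2 was lowest on it.

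Genes of the signals that set the liver clock were read last. Of 5 genes induced by glucocorticoids none was called by limma and none had an unadjusted p under 0.05 on its brightest probe set. On these probe sets Tsc22d3, the one without overlap, was lower in mutants by 0.48 on the log2 scale. On other probe sets Fkbp5 (1448231_at) and Zbtb16 (1427638_at) were higher by 0.52 and 0.79 without overlap. Of all 12 probe sets of these genes 2 were higher and 1 lower without overlap, beside 20.8% and 12.5% of all probe sets. Of 5 measured genes that respond to temperature 1 was called, lower in mutants, where 1.92% of all genes were called lower on their brightest probe set. This was Hspa1b, an inducible heat shock protein, which fell by 2.41 (standard error 0.35, adjusted p = 0.029 from limma). It read 6.96, 5.57 and 6.50 in mutants and 8.52, 8.73 and 8.996 in controls, and fell on its other 2 probe sets too. Hsp90aa1, a chaperone of the same response, differed by 0.87 in the other direction (adjusted p = 0.12 from limma) and by -1.53 on 1438902_a_at. Cirbp, Hspa8 and Hsph1 differed by -0.28, -0.05 and 0.36 on their brightest probe sets and overlapped. Of all 15 probe sets of these genes 1 was higher and 4 lower without overlap, beside 20.8% and 12.5% of all probe sets. Of 5 measured genes of feeding and fasting none was called. Igfbp1, which rises on fasting, differed by 0.76 and Angptl4, a fasting-induced inhibitor of lipoprotein lipase, by 0.81, each without overlap. Srebf1 differed by -0.30, also without overlap, while G6pc, at 0.56, and Pck1, a gluconeogenic enzyme, at -0.34, overlapped. Of all 8 probe sets of these genes 3 were higher and 1 lower without overlap, beside 20.8% and 12.5% of all probe sets. Without each mouse other than mutant 1 none of the genes of these signals was called.

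**Figure D5:**
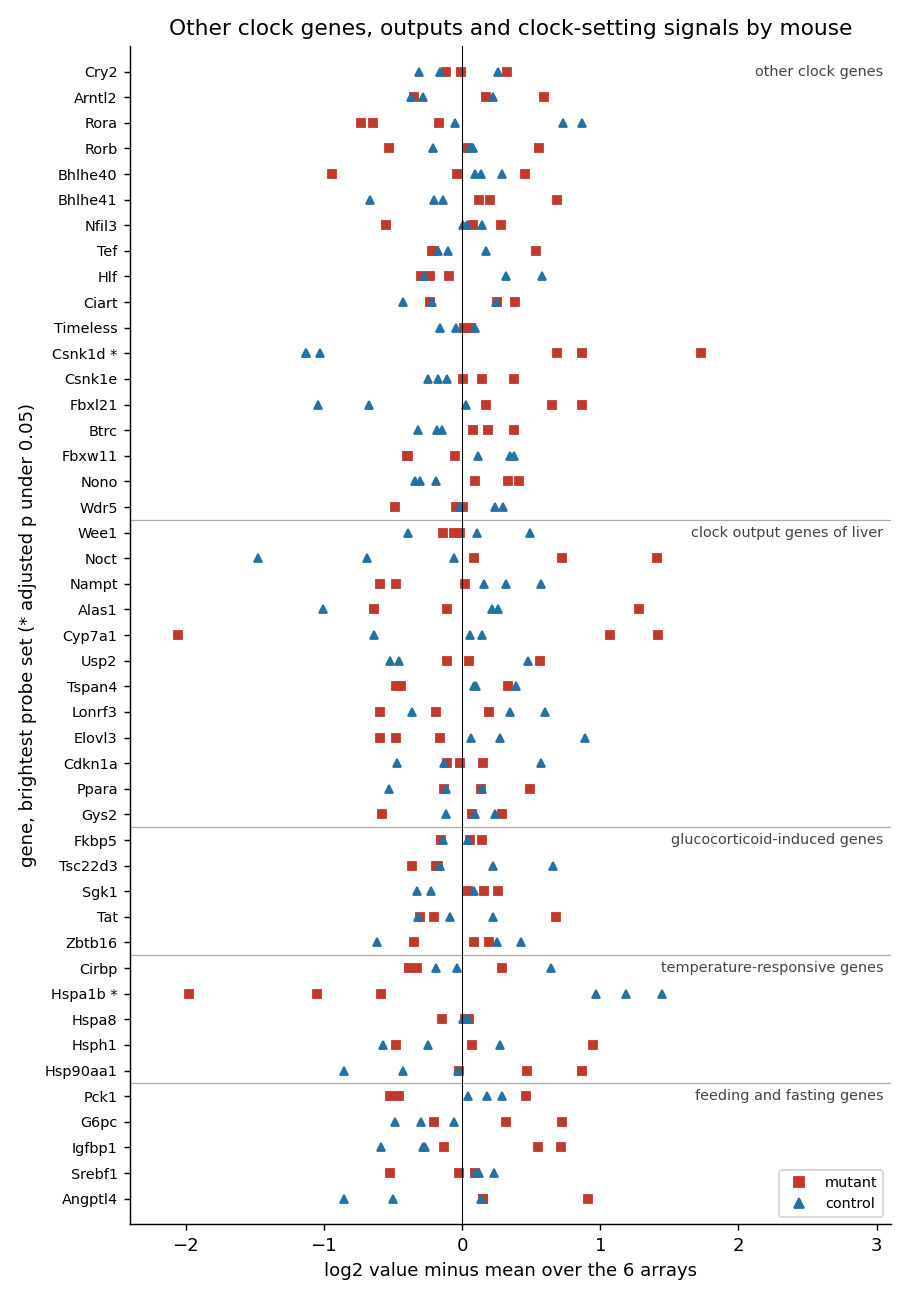
Log2 value minus the mean over the 6 arrays (horizontal axis) on the brightest probe set of each further clock gene, output gene and clock-setting gene (vertical axis), in each mutant (red squares) and control (blue triangles). Csnk1d and Hspa1b, marked with a star, are the genes past an adjusted p of 0.05, Csnk1d with mutants to the right and Hspa1b with mutants to the left.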

How the data were processed

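Liver RNA of 3 mutants and 3 controls was measured on 1 Affymetrix mouse array each, and groups were taken from the sample titles. Normalization and summary were done by the authors in dChip (PM-only model), which gave a log2 value for each probe set and array (the sources used here state neither its version nor its baseline array). The deposited log2 values, from 0 to 14.6 with 40 values of exactly 0, were used without further scaling. They came without detection calls, so the signal over background is unknown, and precision rests on the number of mice. P-values from limma set each difference against the spread between these mice, with the variance of each probe set moderated by that of all probe sets. Although a C. elegans array is named in the methods, the probe sets carry mouse array names.

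Gene symbols were taken from GEO's platform annotation. Of 45101 probe sets, 932 with several symbols and 9211 with none were set aside. The remaining 34958, of 18194 genes, entered 1 linear model with moderated variances (limma 3.58.1, functions lmFit and eBayes, R 4.3.3). A probe set was called at a p under 0.05 after Benjamini-Hochberg adjustment. The brightest probe set of a gene is the one with the highest mean over the 6 arrays. For single values an exact permutation test, two-sided, ran over the 20 assignments of mice. The fit was tested on simulated data. Promoter windows and figures used Python 3.11.15 and matplotlib 3.10.9.

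The members and the further lists were chosen with earlier results of these data known. All members are named with their probe sets. Of the other lists, genes called on any probe set and up to 3 of the smallest p are named. Btrc, Cyp7a1, Ppara, Tsc22d3, G6pc, Srebf1, Pck1 and the second probe sets of list genes were named after their values were seen. Cirbp, Hspa8, Hsph1, Pecam1, Kdr and Clec4g were too. Lists of cell type markers were read for hepatocytes, endothelium, Kupffer cells, stellate cells, cholangiocytes, lymphocytes and red blood cells. Of these, 2 endothelial genes (Stab1 and Stab2) and 1 cholangiocyte gene (Krt19) were higher in mutants, and none of the other markers was called. Alternatives were other scalings, moderation, gene sets, a replicate block, age and the omission of mice. The omission of both mutant 2 and control 3 was an alternative chosen after seeing the data.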

Additional observations from a re-analysis of the deposited data

How the results depend on the processing

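With 3 mice per group the calls depended on single mice and on the probe sets tested. The count of all probe sets called, 1324, ranged from 0 to 3992 when 1 mouse was left out, and was 867 after quantile normalization, 502 with the mean of the probe sets of a gene, 3161 among probe sets above the median level, 2455 with age as a covariate and 0 without both mutant 2 and control 3 (9153 at an unadjusted p under 0.05 from limma). Centring each array gave 330 higher and 556 lower, against 736 and 588. The count of clock probe sets called, 1, ranged from 0 to 3 without 1 mouse. It was 0 with quantile normalization, centred arrays, all probe sets of the array, the mean of probe sets or both mice left out, when 3 to 9 had an unadjusted p under 0.05 from limma. It was 2 on the brightest probe sets alone, 5 among bright probe sets and 4 with age. Other clock genes called, 1, ranged from 0 to 1 without 1 mouse, and were 0 with the mean of probe sets or both mice left out and 2 among bright probe sets. Output genes called, 0, were 0 without each mouse and 1 with age. Genes of clock-setting signals called, 1, ranged from 0 to 2 without 1 mouse and were 0 with both left out.

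The replicate numbers of the titles did not pair the mice: deviations from the group means correlated at 0.14, -0.50 and -0.53 across all probe sets for numbers 1 to 3. Among mice of different numbers the correlation ran from -0.47 for mutant 2 with control 1 to 0.63 for mutant 2 with control 3. It was 0.41 and 0.40 for mutant 3 with controls 1 and 2. With the number as a block limma called 0 of all probe sets (6834 at an unadjusted p under 0.05), 0 clock probe sets, 0 other clock genes, 0 output genes and 0 genes of clock-setting signals.

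Of 347 differences of single clock probe sets under the alternatives, 310 kept their direction and side of the threshold, 16 turned in sign, 10 passed newly and 11, all of Npas2 1421036_at, no longer passed. Those that turned were small. Arntl 1425099_a_at was 0.19 with the mean of its probe sets and -0.30 to 0.0055 without 1 mouse. Per3 1421086_at was -0.14 with quantile normalization, -0.11 with centred arrays and -0.074 to 0.18 without 1 mouse. Nr1d2 1416959_at was -0.017 with quantile normalization, -0.022 with centred arrays and -0.39 to 0.57 without 1 mouse. Dbp 1418174_at was -0.024 with centred arrays and -0.16 to 0.62 without 1 mouse, and Dbp 1438211_s_at was -0.11 to 0.66.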
